A study of Mus musculus with 6 samples.

Results

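Rod bipolar cells were examined in retinas of mice with oxygen-induced retinopathy (OIR) and of control mice by droplet single-cell RNA sequencing, in which each cell barcode collects unique molecular identifiers (UMIs), 1 for each RNA molecule counted. The members were chosen by their own UMIs. A barcode was kept when it held 500 to 5000 detected genes and at most 20% mitochondrially encoded counts. A kept barcode was a member when it held at least 3 of Prkca, Car8, Sebox, Vstm2b, Pcp2 and Trpm1, with Prkca or Sebox among them, and 0 UMIs of Scgn, Arr3 and Tfap2b. Of 47631 barcodes in 6 libraries, 38569 were kept and 2143 were members, which is 5.56% of those kept. The members held 15978695 of 165647166 UMIs.

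Rod bipolar cells are the interneurons that take the signal of rod photoreceptors to the inner retina. Glutamate released by rods in the dark is sensed by the receptor mGluR6, encoded by Grm6, whose G protein closes the cation channel TRPM1. In light this brake is lifted, the channel opens and the cell depolarises, which makes it an ON bipolar cell. At its axon terminal, ribbon synapses release glutamate onto AII amacrine cells, and GABA and glycine receptors on the terminal receive inhibition. In OIR, high oxygen in the first postnatal weeks stops and prunes vessels of the central retina, and the inner retina, where these cells have their axons, becomes hypoxic after the return to air.

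OIR pups were held at 75% oxygen from postnatal day (P) 7 to P12 and then in normal air until P17, and control pups stayed in room air to the same age. Each group had 3 samples, and each sample pooled the retinas of 2 mice. No genetic change was named for either group, and strain and sex were not given in the sources used here. The labels call the tissue retinal endothelial cells, but all dissociated retinal cells were loaded, and in the members the endothelial genes Pecam1 and Cdh5 were at 3.30 and 0.889 CPM over all libraries, where CPM is the UMI count scaled to a library of 1000000 UMIs. Library totals were 37872383, 24615436 and 25061712 UMIs in OIR replicates 1 to 3 and 42606878, 19702233 and 15788524 in control replicates 1 to 3. The p-values measure the spread between these samples of pooled mice.

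The libraries did not all match in a sex-linked gene. Xist, the RNA of the inactive X chromosome, was at 3523 and 3378 CPM in the members of control replicates 2 and 3, at 0.192 CPM in OIR replicate 1 and at 0 in the members of OIR replicates 2 and 3 and control replicate 1. The Y-linked Ddx3y showed the reverse, with 82.3 to 102 CPM in those 4 libraries and 0 in control replicates 2 and 3. Both libraries with Xist were controls, so sex and group were partly confounded. The comparison of the groups was therefore repeated with a term for these 2 libraries, an alternative chosen after seeing the data.

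OIR replicates 1 to 3 gave 642, 179 and 157 members and control replicates 1 to 3 gave 830, 174 and 161. The replicate 1 libraries of both groups held 68.7% of all members. Members made up 10.6%, 3.25% and 2.10% of kept barcodes in OIR and 11.6%, 3.24% and 2.29% in control. Samples with the same number thus lay close together and the groups overlapped, with means of 5.32% ± 4.61 and 5.72% ± 5.13 (SD, n = 3 each, exact permutation p = 0.7, two-sided, the smallest possible being 0.1). Leaving out control replicate 1, the library with the highest share, turned the difference of OIR minus control from -0.397 to 2.55 percentage points, and leaving out OIR replicate 2 or OIR replicate 3 turned it to 0.636 or 1.21. Of rod and cone bipolar barcodes together, rod bipolar members made up 67.5%, 72.5% and 59.5% in OIR and 53.9%, 68.8% and 64.7% in control (66.5% ± 6.56 against 62.4% ± 7.70, n = 3 each, exact permutation p = 0.6). Without control replicate 1 that difference of 4.05 points was -0.234. No shift in the share of rod bipolar cells was detectable with these samples.

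OIR members were more deeply covered. The median number of UMIs per member was 8358, 10106 and 9506 in OIR and 6672, 8170 and 6387 in control. Every OIR sample lay above every control sample (9323 ± 888 against 7076 ± 958, n = 3 each, exact permutation p = 0.1, the smallest possible). With at least 2 of the 6 markers in place of 3, the difference fell from 2247 to 741 UMIs and the groups overlapped (7748, 8839 and 4534 in OIR and 6324, 7231 and 5342 in control, exact permutation p = 0.7, n = 3 each). Median detected genes ran from 3067 to 3597 in OIR and from 2634 to 3109 in control, with 1 control sample within the OIR range. The cone bipolar barcodes of the same libraries had medians of 7105 to 8184 UMIs in OIR and 5936 to 7501 in control, and their groups overlapped. When each member was thinned to 1000 UMIs, 3188 genes could be tested, and all 59 of them that had been called at full depth kept their direction, while 21 of the 59 were still called.

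**Figure D1:**
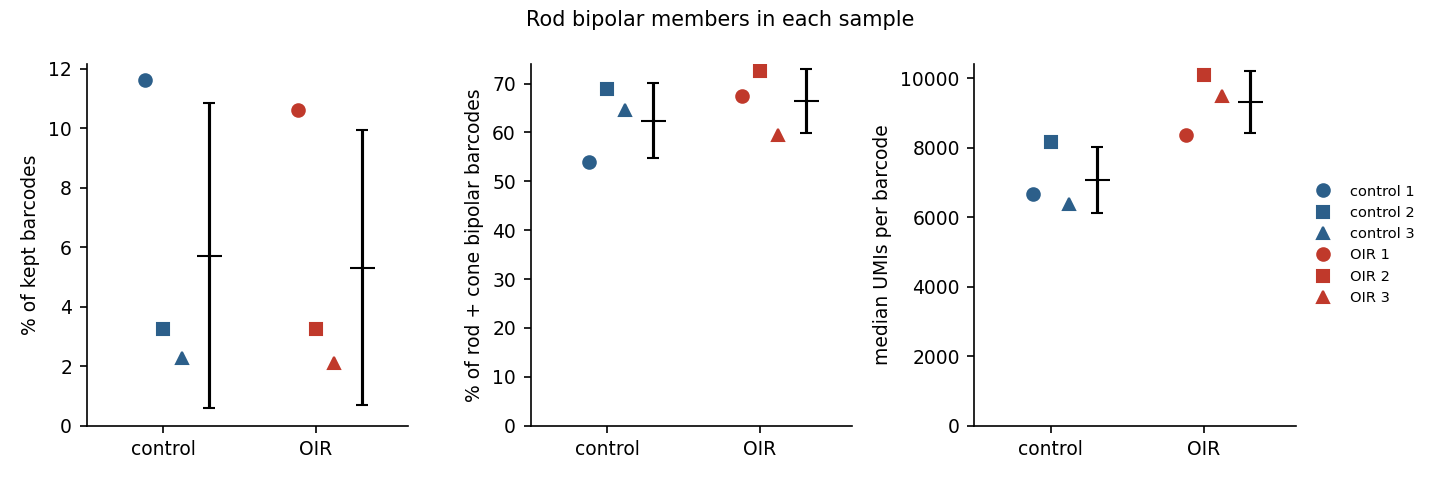
Share of rod bipolar members among kept barcodes (left), among rod plus cone bipolar barcodes (middle) and median UMIs per member (right), for each control (blue) and OIR (red) sample, with mean and SD in black. The share of kept barcodes follows the replicate number, from 10.6% and 11.6% in the replicate 1 libraries to 2.10% and 2.29% in replicate 3, whereas the median UMIs of the 3 OIR samples all lie above those of the 3 control samples.

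Because the members were selected on them, the 6 marker genes are described without a test. All 6 were detected in 1721 members (80.3%), 5 in 114, 4 in 70 and 3 in 238. Over all libraries, Pcp2, a modulator of Go signalling, was at 10348 CPM in members, 24.2 times its level in the other kept barcodes, and Trpm1 was at 3546 CPM, 25.4 times. Prkca, protein kinase C alpha, was at 2163 CPM (22.0 times), Car8 at 1096 (30.9 times), the homeobox gene Sebox at 710 (28.9 times) and Vstm2b at 660 (34.3 times). The share of members with all 6 was 77.1%, 73.2% and 75.2% in OIR and 82.3%, 86.2% and 89.4% in control, so every OIR sample was below every control sample. Sebox measured 673, 450 and 470 CPM in OIR and 784, 1037 and 1168 in control. Pcp2 lay the other way, at 11367, 11297 and 12586 CPM in OIR and 9443, 9920 and 10429 in control, while Prkca and Trpm1 overlapped between the groups, with means of 2208 ± 110 against 2121 ± 138 and 4068 ± 565 against 3945 ± 805.

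Genes that the rule did not use fit the label. Of 16 further rod bipolar genes, 14 were more than 3 times higher by CPM in members than in the other kept barcodes, from 3.72 times for Neurod4 to 22.8 times for Strip2, and the other 2 were Lhx4 (1.44 times) and Otx2 (1.34 times), which photoreceptors or cone bipolar cells also use. Tpbg stood at 16.2 times, the homeobox gene Isl1 at 13.1 times and Grm6 at 8.05 times. By ratio alone, among genes at 20 CPM or more, the complement regulator Cfi led with 70.8 times, followed by the uncharacterised transcripts Gm29678 (68.6), Gm35217 (60.1) and Gm30725 (58.3), the potassium channel subunit Kcnip2 (43.4) and the synaptic adhesion protein Lrrtm4 (42.6). The next were Ano3 (39.6), 5730419F03Rik (38.3), A230077H06Rik (32.7), Il1rap (32.6), Sdk1 (31.5), Slco5a1 (26.0), Bend4 (25.9), Il22 (25.3) and Tmem196 (24.9). These ratios follow from how the members were chosen and carry no test.

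Members near the limit held less of this identity. In OIR replicate 1, the 95 members with exactly 3 markers had an Isl1 UMI in 46.3% and a Grm6 UMI in 37.9%, and the 334 barcodes just outside, with 2 markers, in 8.08% and 9.28%. The 495 members with all 6 markers had both in 100%. The median share of rod marker RNA per barcode in that library was 2.34% in members with 3 markers, 8.38% just outside and 0.393% in members with all 6. In members with 3 markers this median was 3.39% and 5.10% in OIR replicates 2 and 3. It was 1.78%, 1.72% and 1.02% in control replicates 1 to 3. The 3 zero genes refused 728 barcodes that otherwise met the rule, and the need for Prkca or Sebox refused 288. No doublet caller was run, and 130 members held 3 or more of 5 Mueller glia genes. Of the barcode sequences that recurred between libraries, none was a member in both.

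RNA of other retinal cells was present in the members, most of all that of rods. The 15 rod markers summed to 10194, 5624 and 9134 CPM in OIR and 11738, 7867 and 6926 in control, against 31474 to 71758 in the other barcodes, and none was called. Mueller glia markers, led by Apoe, summed to 1587, 488 and 248 CPM in OIR and 1937, 1251 and 418 in control, with a median log2 fold change of -0.75 over 11 tested and 0 called. The groups overlapped in both lists, but in each numbered pair the Mueller glia sum was the lower one in OIR. With the replicate number as a term in the test described next (the replicate block), 4 Mueller glia markers were lower (Glul, Spc25, Apoe and Clu) and 1 higher (Aqp4), and 3 were lower without OIR replicate 1. Over all genes tested the block called 2.92% lower and 2.85% higher. It also called 1 rod marker lower (Gnat1) and 1 higher (Nr2e3). Microglia markers summed to 202, 6.53 and 13.8 CPM in OIR and 190, 21.6 and 10.3 in control. Endothelial and pericyte markers summed to 57.7, 33.2 and 7.28 CPM in OIR and 181, 36.6 and 14.4 in control. Amacrine markers, nearly all of them Meg3 RNA, came to 988, 1227 and 1386 against 2026, 2003 and 1313 CPM, and Meg3 was lower with the block. Cone markers summed to 311, 49.3 and 79.4 CPM in OIR and 246, 31.3 and 37.1 in control, and horizontal and ganglion cell markers to 16.6 CPM or less in every sample, with 3 of those 10 genes at 0. The Mueller glia, microglia, endothelial and cone sums were highest in the replicate 1 library of each group. Markers of pigment epithelium, lens and blood summed to 171, 79.5 and 21.1 CPM in OIR and 174, 623 and 72.2 in control, where control replicate 2 held 402 CPM of Ttr. Of these, Hbb-bs was called lower, and Ttr as well with the block. The block called 1 cone marker (Gngt2) and 2 cone bipolar markers (Gsg1 and Cabp2) higher. The part of this RNA in the results that follow was not tested beyond the alternatives given with them.

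To ask how rod bipolar cells differed in OIR, UMIs were summed over the members of each sample and compared between the 3 OIR and 3 control sums. All adjusted p-values for genes come from edgeR's quasi-likelihood test with Benjamini-Hochberg adjustment over all genes tested, and calls needed an adjusted p under 0.05 together with an absolute log2 fold change of at least 0.25. Of 9426 genes tested, 67 were higher in OIR (0.711%) and 68 lower (0.721%), while 1208 had an unadjusted p under 0.05. The median fold was 2.73 for those higher and 2.05 for those lower. For all 135, the 3 OIR values lay entirely on one side of the 3 control values. That was so for 9.66% of all genes tested with OIR above and for 9.50% with OIR below. With the replicate number as a block, 269 were higher (2.85%) and 275 lower (2.92%), among them all 135. The calls leaned on single libraries, since 17 genes were higher and 14 lower when control replicate 2 was left out, 20 and 12 when it was OIR replicate 2, 23 and 12 for OIR replicate 3, 32 and 34 for control replicate 3 and 96 and 123 for control replicate 1. When barcodes above 5000 genes were kept as well, 23 were higher and 25 lower, and with the term for the Xist-positive libraries 35 and 36, of which 50 were among the 135. That term ended the calls of Tpbg, Ldha, Higd1a, Ero1l, Cox4i2, Stmn4, Rpl10a, H2-T23 and Cabp2 among the genes named here. All 135 kept their direction in each of these fits in which they were measured.

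**Figure D2:**
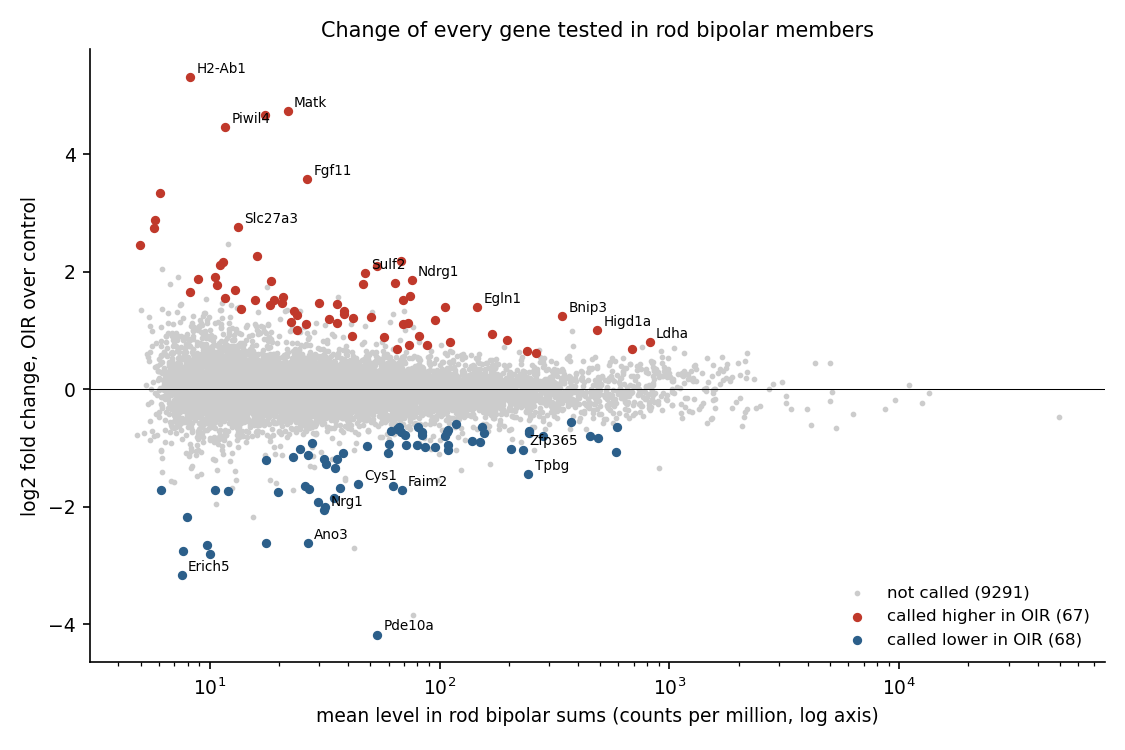
Log2 fold change of OIR over control (vertical axis) against the mean level in the rod bipolar sums in CPM (horizontal log axis) for each gene tested, with 67 genes called higher in red, 68 called lower in blue and the rest in grey. The largest changes, from 5.32 to -4.18, are in genes at low levels, and the called genes of the hypoxia response, such as Bnip3, Higd1a and Ldha, are among the more abundant ones.

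The gene with the lowest p among all tested was Fgf11, an intracellular relative of the fibroblast growth factors that modulates voltage-gated sodium channels (chr11:69796068-69801857, minus strand, GRCm38). It measured 41.9, 55.8 and 49.5 CPM in OIR and 4.06, 2.99 and 5.16 CPM in control. All 3 OIR samples lay far above the highest control, for a log2 fold change of 3.58 ± 0.25 (SE, adjusted p = 0.000103). An Fgf11 UMI was found in 265 of 978 OIR members and in 29 of 1165 control members. Sulf2, an enzyme that edits heparan sulfate on the cell surface (chr2:166073089-166155663, minus strand), measured 72.9, 81.9 and 75.7 CPM in OIR and 23.4, 14.9 and 15.5 CPM in control. The OIR samples were tightly grouped and well apart, with a log2 fold change of 1.98 ± 0.19 (adjusted p = 0.000733). Neither gene lost its call in any alternative in which it was tested.

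Matk, a kinase that restrains Src family kinases (chr10:81252935-81263365, plus strand), was almost absent from control members, at 1.55, 1.49 and 2.06 CPM, and measured 69.3, 23.7 and 32.8 CPM in OIR. The OIR samples varied among themselves but none approached the controls (log2 fold change 4.74 ± 0.51, adjusted p = 0.00115), and 235 OIR members held a Matk UMI against 11 control members. Piwil4, of the Piwi family of small-RNA binding proteins, measured 32.6, 20.8 and 14.6 CPM in OIR and 1.35, 0.746 and 0 CPM in control. It was also separate between the groups (4.46 ± 0.50, adjusted p = 0.00156). Slc27a3, of the fatty acid transport protein family, measured 26.8, 24.3 and 16.7 CPM in OIR and 2.51, 6.72 and 2.06 CPM in control (2.76 ± 0.39, adjusted p = 0.00581). Prdx4, a peroxiredoxin of the secretory pathway, had 115, 90.2 and 94.7 CPM in OIR and 45.6, 41.8 and 51.6 CPM in control (1.13 ± 0.16, adjusted p = 0.00491). In both genes the groups did not overlap.

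H2-Q7, a class I gene of the major histocompatibility complex (MHC) at chr17:35439155-35443773, measured 38.9, 25.5 and 34.2 CPM in OIR and 0.580, 2.99 and 2.06 CPM in control (log2 fold change 4.66 ± 0.43, adjusted p = 0.000598). The groups were far apart, but H2-Q7 has near-identical neighbours with which it may share reads. H2-Ab1, the beta chain of a class II molecule that antigen-presenting cells display, measured 30.6, 8.90 and 8.74 CPM in OIR and 0.386, 0.746 and 0 CPM in control. The OIR samples all lay above the controls, in which only 3 UMIs were seen against 180, a ratio of 57.1 per UMI total (exact 95% interval for counting error 19.2 to 279.6). Its adjusted p was 0.00853, and 0.0552 without control replicate 2. Of the 180, 153 came from OIR replicate 1 and 15 and 12 from OIR replicates 2 and 3, so the ratio leans on 1 library. A single barcode gave 8 at most, and 99 OIR members held a UMI. The other kept barcodes held 11 CPM in OIR and 2.07 CPM in control on average, and the microglia marker sum was high in the replicate 1 library of both groups, and its part in this result was not tested. Among 23 interferon response and class I genes, 9 were tested, all with a positive log2 fold change (median 0.42), and only H2-T23 was called (1.91, adjusted p = 0.0401). H2-T23 measured 23.4, 8.90 and 17.5 CPM in OIR and 4.83, 5.22 and 3.1 in control. Its call was lost without any of OIR replicates 1 and 3 and control replicates 1 to 3, and H2-K1 and H2-D1 joined it with the replicate block.

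Among the genes that fell, Nrg1, a ligand of ErbB receptors (chr8:31814551-32884029, minus strand), measured 11.6, 11.9 and 13.1 CPM in OIR and 51.4, 41.0 and 59.8 CPM in control. The OIR samples were nearly equal and all below the lowest control (log2 fold change -2.06 ± 0.21, adjusted p = 0.000831). Kcnj9, a subunit of G protein-gated potassium channels, measured 35.0, 30.3 and 24.0 CPM in OIR and 104, 98.5 and 83.6 CPM in control, again without overlap (-1.65 ± 0.17, adjusted p = 0.000973). Pde10a, which breaks down cyclic nucleotides (chr17:8525372-8986648, plus strand), had the largest fall of the called genes. It measured 9.21, 0.594 and 1.46 CPM in OIR and 56.0, 160 and 92.9 CPM in control (-4.18 ± 0.54, adjusted p = 0.00324), and 41 OIR members against 348 control members held a UMI. Ano3, of the anoctamin family of ion channels and lipid scramblases, is among the genes most concentrated in rod bipolar members. It measured 7.61, 10.7 and 3.64 CPM in OIR and 49.5, 52.2 and 36.1 CPM in control, so that all OIR samples were far below (-2.63 ± 0.28, adjusted p = 0.00115).

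The monocarboxylate transporter gene Slc5a8 measured 12.6, 13.1 and 11.7 CPM in OIR and 38.4, 37.3 and 42.3 CPM in control, with little spread within either group (log2 fold change -1.64, adjusted p = 0.0021). Erich5 fell from 15.5, 12.7 and 12.4 CPM in control to 1.40, 1.19 and 2.18 CPM in OIR (-3.17, adjusted p = 0.0021). Faim2, an inhibitor of Fas-mediated cell death, measured 38.3, 24.9 and 32.8 CPM in OIR and 135, 102 and 77.4 CPM in control (-1.71, adjusted p = 0.00324). These 3 genes too were separate between the groups. The remaining genes of this kind were Zfp365 (-1.03, adjusted p = 0.00324), the cortactin partner Cttnbp2 (-1.04, adjusted p = 0.00467) and Cys1, a protein of primary cilia (-1.62, adjusted p = 0.00491). Tmem196, which is also concentrated in these cells, was lower by a log2 fold change of -0.95 (adjusted p = 0.0271). Haemoglobin RNA, which rod bipolar cells are not expected to make, fell as well. Hbb-bs measured 3.81, 2.97 and 0.728 CPM in OIR and 27.6, 9.70 and 13.4 CPM in control (-2.65, adjusted p = 0.0233), and in the other kept barcodes it averaged 6.45 CPM in OIR and 774 CPM in control, whose part in this result was not tested. Without OIR replicate 2, OIR replicate 3, control replicate 1 or control replicate 3 Hbb-bs was no longer called, with adjusted p of 0.0544 to 0.135.

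Hypoxia genes, which the transcription factor HIF switches on at low oxygen, were the list with the most calls. Of 33 genes, 29 were tested, 8 were higher and none lower, beside 0.711% higher and 0.721% lower of all genes tested. A positive log2 fold change was found in 24 of 29. The median was 0.45, beside -0.002 for all genes tested. With the replicate block 14 were higher, beside 2.85% of all genes tested. With replicates 2 and 3 alone 9 were higher while Pfkl and Ankrd37 were lower. Fewer were called without single libraries, namely 5 if OIR replicate 1 was dropped, 4 for OIR replicate 2 and 3 for control replicate 2. Hk2, Egln1 and Ndrg1 were called in all of these fits. When each member was thinned to 1000 UMIs, 7 of 23 tested were higher.

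Ndrg1, a widely used hypoxia marker (chr15:66929318-66969640, minus strand), measured 115, 125 and 118 CPM in OIR and 35.5, 29.9 and 31.0 CPM in control. Its OIR values were all more than 3 times the highest control (log2 fold change 1.86 ± 0.14, adjusted p = 0.000126). Hk2, hexokinase 2, which starts glycolysis, measured 94.5, 62.3 and 58.2 CPM in OIR and 22.8, 18.7 and 20.6 CPM in control (1.79 ± 0.22, adjusted p = 0.00242). Egln1, the oxygen sensor that marks HIF for destruction (chr8:124908587-124949324, minus strand), measured 243, 223 and 167 CPM in OIR and 91.0, 64.9 and 83.6 CPM in control (1.39 ± 0.17, adjusted p = 0.00264). Bnip3, which promotes removal of mitochondria (chr7:138890836-138909519, minus strand), measured 500, 462 and 469 CPM in OIR and 149, 213 and 250 CPM in control (1.25 ± 0.17, adjusted p = 0.00563, and 0.0507 without control replicate 2). In all of these the groups did not overlap. Hk2 and Ndrg1 had lower pooled CPM in members than in the other kept barcodes (0.513 and 0.350 times). In those other barcodes Hk2 averaged 67.0 CPM in OIR and 134 CPM in control, and Ndrg1 278 CPM in OIR and 177 CPM in control.

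The mitochondrial protein gene Higd1a measured 792, 589 and 562 CPM in OIR and 331, 278 and 357 CPM in control (log2 fold change 1.01, adjusted p = 0.0139). Ldha, the lactate dehydrogenase subunit of glycolytic cells, measured 1193, 911 and 1025 CPM in OIR and 526, 608 and 664 CPM in control (0.80 ± 0.15, adjusted p = 0.0281). Ero1l, an oxidase of the endoplasmic reticulum, and Fam162a were higher by 1.29 and 0.93 (adjusted p = 0.0191 for both). The OIR values of these 4 genes were all above the control values, but their calls were less firm. Ldha was lost without OIR replicates 1, 2 or 3 or control replicates 2 or 3 (adjusted p up to 0.157), Ero1l without OIR replicates 1 or 2 or control replicates 2 or 3, Fam162a without OIR replicates 1, 2 or 3 or control replicate 2, and Higd1a without OIR replicate 2 or control replicate 2. Other list members pointed the same way without passing, among them the glycolytic Gapdh with 6394, 5020 and 5929 CPM in OIR and 3546, 4383 and 4771 CPM in control (0.45, adjusted p = 0.33). Vegfa, the growth factor that drives new vessels in OIR, overlapped between the groups, with 162, 133 and 79.4 CPM in OIR and 90.0, 112 and 98.0 CPM in control (0.36, adjusted p = 0.528).

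**Figure D3:**
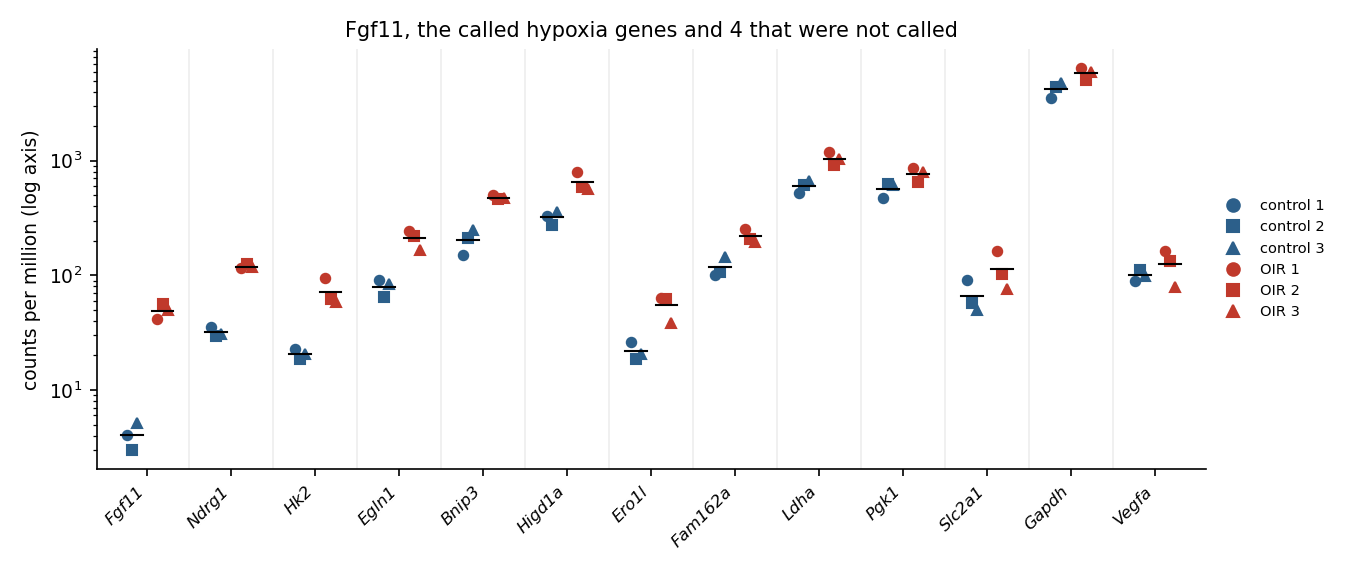
Levels in CPM on a log axis of Fgf11, the 8 called hypoxia response genes and 4 that were not called (Pgk1, Slc2a1, Gapdh and Vegfa) in the rod bipolar sums of each control (blue) and OIR (red) sample, with group means as black bars. For the 8 called genes, such as Ndrg1 with 115 to 125 in OIR and 29.9 to 35.5 in control, the groups do not overlap, while the values of Vegfa overlap.

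The start regions of the hypoxia genes were read for ACGTG, the core of the element that HIF binds, on both strands (so also CACGT, and CACGTG holds 2 overlapping matches). The windows were RefSeq sequences of GRCm38.p6 from 250 bases before to 50 bases after a gene's start in RefSeq. For Fgf11 that start lies upstream of the GENCODE gene given above, and its window does not hold the GENCODE start. Of the 29 tested hypoxia genes 24 had a window, and 19 of the 24 held a match (79.2%). The share was 31.2% for the 7527 genes with a window among all genes tested and 19.6% for all 32851 windows of that length. All 7 called genes with a window held one, as did 12 of 17 not called. Shown are the windows of 3 called hypoxia genes and of Fgf11, the most firmly called gene, in the direction of transcription with the matches in capitals. The windows lie at chr6:82774405-82774704 for Hk2, chr8:124949205-124949504 for Egln1, chr7:138909457-138909756 for Bnip3 and chr11:69802231-69802530 for Fgf11, all on the minus strand.
Hk2: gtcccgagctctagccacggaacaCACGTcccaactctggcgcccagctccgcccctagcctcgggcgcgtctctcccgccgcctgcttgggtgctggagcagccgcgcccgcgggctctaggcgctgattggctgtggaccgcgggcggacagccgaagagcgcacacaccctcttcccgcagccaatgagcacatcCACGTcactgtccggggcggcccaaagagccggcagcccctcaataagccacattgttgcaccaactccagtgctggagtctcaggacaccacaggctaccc
Egln1: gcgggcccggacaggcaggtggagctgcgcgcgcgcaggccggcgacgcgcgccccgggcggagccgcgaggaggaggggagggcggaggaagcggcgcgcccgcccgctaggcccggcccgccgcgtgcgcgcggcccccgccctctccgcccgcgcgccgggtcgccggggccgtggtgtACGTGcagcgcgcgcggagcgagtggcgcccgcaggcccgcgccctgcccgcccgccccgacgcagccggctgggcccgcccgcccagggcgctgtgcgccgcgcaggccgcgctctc
Bnip3: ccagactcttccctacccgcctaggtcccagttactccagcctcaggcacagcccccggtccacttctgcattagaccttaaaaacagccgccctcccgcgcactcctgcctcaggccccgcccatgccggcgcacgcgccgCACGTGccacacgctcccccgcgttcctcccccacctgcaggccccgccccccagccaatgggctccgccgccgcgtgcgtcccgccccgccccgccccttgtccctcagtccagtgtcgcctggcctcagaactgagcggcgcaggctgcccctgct
Fgf11: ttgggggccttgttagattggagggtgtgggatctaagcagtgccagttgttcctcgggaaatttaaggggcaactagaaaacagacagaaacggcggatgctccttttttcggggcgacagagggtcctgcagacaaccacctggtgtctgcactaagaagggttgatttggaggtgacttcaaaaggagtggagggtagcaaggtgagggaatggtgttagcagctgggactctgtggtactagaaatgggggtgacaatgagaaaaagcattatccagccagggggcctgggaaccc
Hk2 held 2 separate matches, Egln1 held 1, and Bnip3 held 2 that overlap in CACGTG. The Fgf11 window held none, which says only that these letters are not in this window. A match is a description of the sequence and not a measured binding site.

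None of the tested genes of the mGluR6 cascade, which turns rod input into the cell's response, passed the test. Of 15 genes, 11 were tested outside the rule, with a median log2 fold change of 0.06, 6 positive and 5 negative, and 3 had an unadjusted p under 0.05. Lrit3 was under the filter on low counts. Grm6, the receptor itself, measured 1074, 987 and 1261 CPM in OIR and 877, 830 and 906 CPM in control. All OIR samples were above the controls, but the difference of 0.35 ± 0.14 did not pass (adjusted p = 0.328). Gng13, a G protein gamma subunit of this pathway, measured 3672, 3790 and 4832 CPM in OIR and 4365, 6953 and 8078 CPM in control. The groups overlapped and the log2 fold change of -0.66 ± 0.23 did not pass (adjusted p = 0.249), but with the replicate block it was called (-0.62, adjusted p = 0.00892), as it was without control replicate 1 (-0.88, adjusted p = 0.0246). Nyx, the nyctalopin that anchors the channel complex, measured 21.2, 33.2 and 18.9 CPM in OIR and 35.2, 40.3 and 35.1 CPM in control (-0.60 ± 0.22, adjusted p = 0.273). For the rest, log2 fold changes were 0.18 for Gnb3, 0.14 for Gnao1, 0.15 for Gpr179, -0.17 for Rgs7, 0.10 for Rgs11, -0.11 for Gnb5, -0.26 for Rgs9bp and 0.06 for Lrit1. The signs of Rgs11, Gnb5 and Lrit1 turned without single libraries.

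For the GABA and glycine receptor genes given next, no difference passed the test. Gabrr2, of the GABA receptor typical of these terminals, measured 187, 155 and 146 CPM in OIR and 223, 190 and 230 CPM in control. All OIR samples lay below the lowest control, but the log2 fold change of -0.39 ± 0.14 was not called (adjusted p = 0.248). Gabrr1, of the same receptor, was at -0.12. Glra1, a glycine receptor subunit, measured 23, 19.6 and 14.6 CPM in OIR and 27.6, 38.1 and 34.0 CPM in control, again without overlap and without passing (-0.71 ± 0.23, adjusted p = 0.181). Its partner Glrb was at 0.50 and the scaffold gene Gphn at -0.24. Gabra2, Gabra3, Gabrb2 and Glra2 were under the filter. All 26 genes of the ribbon synapse and of transmitter release were tested and none was called, with a median of -0.14 and 18 negative. With the replicate block 2 of them were lower, Snap25 (-0.48 without the block, adjusted p = 0.0113 with it) and the priming factor Unc13b (-0.47, adjusted p = 0.0109 with it).

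**Figure D4:**
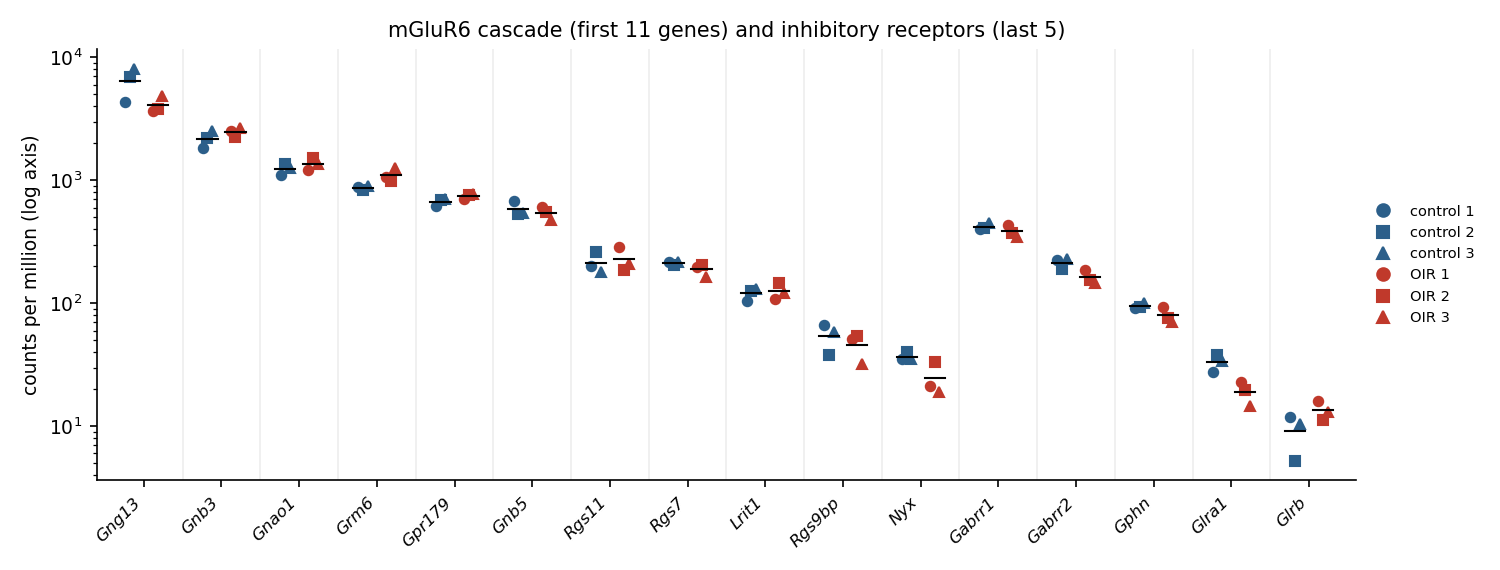
Levels in CPM on a log axis of genes of the mGluR6 cascade and of 5 inhibitory receptor genes in the rod bipolar sums of each control (blue) and OIR (red) sample, with group means as black bars. Grm6 and Gng13 lean in opposite directions, and none of the genes shown was called.

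Of the 16 identity genes outside the rule, only Tpbg was called. Tpbg, a membrane glycoprotein of these cells, measured 120, 129 and 141 CPM in OIR and 219, 431 and 420 CPM in control. The 3 OIR samples were below the lowest control (log2 fold change -1.44 ± 0.23, adjusted p = 0.0125). It was lost without OIR replicate 2 or 3 or control replicate 2 or 3 (adjusted p 0.0544 to 0.0809) and fell to -0.76 with the term for the Xist-positive libraries (adjusted p = 0.0539), that is for the 2 control samples with the highest values. Isl1, a transcription factor of ON bipolar cells, measured 2217, 2611 and 2602 CPM in OIR and 1773, 1620 and 1939 CPM in control. The groups did not overlap, and the log2 fold change of 0.48 was called with the replicate block (adjusted p = 0.0191) and not without it (0.189). The block also called Lhx4 higher and Gng13 lower. The calcium-binding protein gene Cabp2, more typical of cone bipolar cells, measured 49.7, 41.0 and 40.8 CPM in OIR and 17.4, 8.96 and 21.7 CPM in control (1.47, adjusted p = 0.0174). It was lost without OIR replicates 1, 2 or 3 or control replicate 2.

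Genes of neurite growth and immature neurons leaned upward. Of 18 tested of 23, 3 were higher (Marcks, Sox4 and Stmn4) and none lower, beside 0.711% and 0.721% of all genes tested. The median was 0.55, with 16 positive. It ran from 0.28 to 0.74 when single libraries were left out. With members low in rod RNA it was 0.26, and without members holding Mueller glia RNA it was 0.79. Marcks, which links membranes to actin, measured 127, 157 and 174 CPM in OIR and 49.5, 62.7 and 65.0 CPM in control. The OIR samples were all well above the highest control (log2 fold change 1.39, adjusted p = 0.00232), and Marcks stayed called without any single library. The transcription factor Sox4 measured 250, 225 and 277 CPM in OIR and 120, 127 and 182 CPM in control (0.83, adjusted p = 0.0328), and the tubulin regulator Stmn4 was higher by 1.78 (adjusted p = 0.0281). Stmn4 lost its call without any single library and Sox4 without each except control replicate 3. With the replicate block 7 of the list were higher, beside 2.85% of all genes tested.

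Of the ribosomal protein genes, 80 of 83 were tested and 75 had a positive log2 fold change with a median of 0.27, and 46 lay above all controls in every OIR sample, beside 9.66% of all genes tested. Only Rpl10a was called (0.69, adjusted p = 0.0469), a call that was lost without any of OIR replicates 1 to 3 and control replicates 2 and 3. With the replicate block 19 were called higher, beside 2.85% of all genes tested. Summed, they took 79940, 75538 and 85121 CPM in OIR and 68156, 64082 and 66832 CPM in control, so the groups did not overlap. The other kept barcodes summed to 77885, 70392 and 72255 CPM in OIR and 68859, 60214 and 56199 CPM in control, also apart. Nuclear genes of oxidative phosphorylation leaned the other way, with 74 of 92 tested negative and a median of -0.16. Only Cox4i2, a hypoxia-inducible subunit of cytochrome c oxidase, was called, and it was higher, at 144, 65.3 and 91.0 CPM in OIR and 30.3, 35.8 and 18.6 CPM in control (1.82, adjusted p = 0.013). It was lost without control replicate 2 or 3 (adjusted p = 0.0592 and 0.0538). For this list the block gave 4 higher and 13 lower, beside 2.85% higher and 2.92% lower of all genes tested. The 13 mitochondrially encoded genes had a median of -0.34 with 12 negative and none called. The median was 0.17, with 10 positive, without control replicate 1 and -0.90 without OIR replicate 1, and with the replicate block 4 were lower (mt-Nd2, mt-Nd4l, mt-Nd6 and mt-Cytb). Their sum was 91282 and 106874 CPM in the replicate 1 libraries of OIR and control and 35241 to 44547 CPM in the other 4.

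Of 17 tested genes of the immediate early and heat shock list, 13 had a negative log2 fold change, with a median of -0.28. With members thinned to 1000 UMIs, 10 could be tested, 5 of each sign, with a median of 0.03. Nr4a1 was the only one called, at 7.81, 3.56 and 0.728 CPM in OIR and 36.5, 33.6 and 22.7 CPM in control (-2.62, adjusted p = 0.0115). It was lost without OIR replicate 2 or control replicate 2 (0.0773 and 0.0783). With the replicate block 6 were lower, namely Nr4a1, Dnaja1, Ier2, Junb, Dusp1 and Fos. Fos, an immediate early gene, measured 160, 74.2 and 54.6 CPM in OIR and 365, 207 and 136 CPM in control. Fos overlapped between the groups as a whole, but in each numbered pair the OIR sample was the lower one (-1.27, adjusted p = 0.15, and 3.09e-06 with the block). No gene was called among 16 tested of cholesterol synthesis (median 0.01), 19 of antioxidant defence (-0.08), 14 of the integrated stress response and cell death (0.04), 13 of calcium and potassium handling (-0.06) and 9 of gliosis-type and cytokine signalling (-0.33). With the block the stress list had 1 higher and 3 lower, the antioxidant list 2 lower, the calcium and potassium list 1 of each and the gliosis-type list 1 lower. Dab2ip, the gene of the signalling protein AIP1 at the centre of the study, measured 118, 144 and 116 CPM in OIR and 144, 162 and 117 CPM in control members. The groups overlapped and the difference of -0.17 ± 0.15 did not pass (adjusted p = 0.69).

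Cone bipolar cells of the same samples were the nearest comparison, taken as 1362 barcodes with Scgn and at least 2 of 8 bipolar genes and without Prkca, Sebox, Arr3 and Tfap2b. In them 35 of 8145 genes tested were higher in OIR (0.43%) and 10 lower (0.123%). Of the 135 rod bipolar calls, 105 were tested in cone bipolar sums, 97 had the same sign and 19 were called the same way, 18 of them higher and 1, Faim2, lower. Both fits rest on the same 6 samples. Hk2 was at 2.10 in cone bipolar cells (adjusted p = 0.00304), Egln1 at 1.23, Bnip3 at 1.20 and Ndrg1 at 1.07. The median of the hypoxia list was 0.46, beside 0.45 in rod bipolar members. H2-Q7 and H2-Ab1 were at 5.08 and 4.73 in cone bipolar cells too (adjusted p = 0.000525 for both).

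The difference of the OIR effect between the cell types was tested as an interaction over 12 sums with each sample as a block. Of 10333 genes tested, 15 (0.145%) had a more positive and 16 (0.155%) a more negative change in rod bipolar members, and 791 had an unadjusted p under 0.05. Fgf11 differed most firmly among the former, with a log2 fold change of 3.58 in rod and 0.43 in cone bipolar cells (difference 2.97, adjusted p = 0.00139), where its mean level was 60.5 CPM in OIR and 51.2 CPM in control. Control rod bipolar members, at 4.07 ± 1.09 CPM, were thus the group in which Fgf11 was low. Ly6h, a membrane protein that binds nicotinic receptors, and Actl6b, a subunit of the neuronal chromatin remodelling complex, were higher in rod bipolar members (2.19 and 2.26) and near 0 in cone bipolar cells (0.08 and 0.11), with differences of 1.77 (adjusted p = 0.0059) and 2.11 (adjusted p = 0.00653). Within rod bipolar members Ly6h was no longer called without OIR replicate 2 or control replicate 2, nor Actl6b without control replicate 2. In cone bipolar cells the carbonic anhydrase Car2 was called lower in OIR (-1.34, adjusted p = 0.0216). The photoreceptor transducin subunit Gngt1 was at -0.89 there and was not called (adjusted p = 0.21). In rod bipolar members Gngt1 and Car2 were at -0.26 and -0.24. Their differences were 0.65 and 1.10, and Gngt1 fell to 0.32 (adjusted p = 0.574) when members needed at least 4 markers.

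In the other direction, Kcnj9 was at -1.65 in rod bipolar members and at -0.24 in cone bipolar cells (difference -1.36, adjusted p = 0.00749). Kcne2, a potassium channel subunit, was at 288 ± 74.2 CPM in OIR and 218 ± 9.17 CPM in control rod bipolar members and rose from 8.90 to 58.9 CPM in cone bipolar cells (log2 fold changes 0.41 and 2.63, difference -2.16, adjusted p = 0.000519). Fos was at -1.27 and 0.18 (difference -1.54, adjusted p = 0.00173), and Bzw2, a translation regulator, at -0.36 and 0.44 (-0.81, adjusted p = 0.0059). Tmsb10, an actin-sequestering peptide, had the lowest p in this test (difference -0.97, adjusted p = 7.6e-05). Its rod bipolar levels were 2954, 2343 and 4538 CPM in OIR and 2246, 5750 and 6971 CPM in control, so that the groups overlapped and the 2 highest samples were the Xist-positive controls. Leaving out replicate number 2 ended the calls of Ly6h, Actl6b and Kcnj9, and leaving out replicate number 3 those of Gngt1, Ly6h, Bzw2 and Kcnj9.

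**Figure D5:**
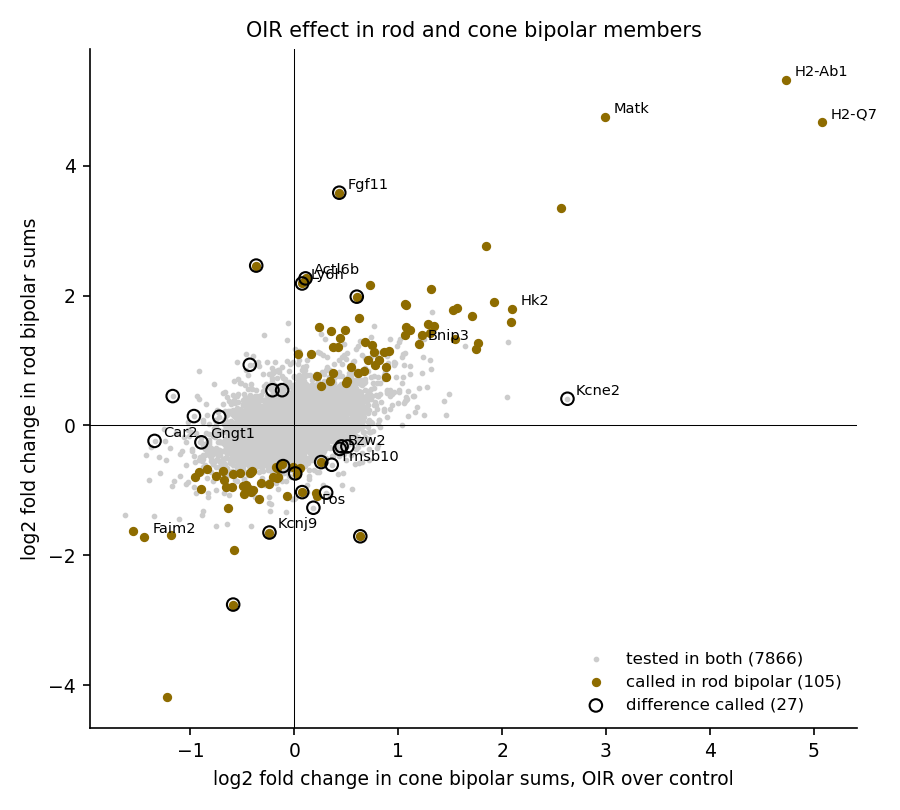
Log2 fold change of OIR over control in cone bipolar sums (horizontal axis) against rod bipolar sums (vertical axis) for 7866 genes tested in both, with the 105 called in rod bipolar members as brown points and the 27 whose difference was called ringed in black. Fgf11 lies at 3.58 in rod and 0.43 in cone bipolar cells, and Kcne2 at 0.41 and 2.63, while Hk2 and Bnip3 lie at similar values in both.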

How the data were processed

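Per the labels and the matrix headers, the authors aligned the reads of 6 10x Genomics libraries to the mouse build mm10 and counted UMIs with software version 3.1.0. The deposited values are raw UMI counts per gene and barcode over 31053 genes. The study's methods name a human build and another software version, but the deposited gene IDs are mouse. The limits on detected genes and mitochondrial counts used here are those given in the study's methods. The authors' own clusters were not used. No doublet caller and no correction for free RNA were run, and 0 columns of other samples were present.

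The members and the gene lists were chosen with earlier results of these data known. Member UMIs were summed per sample (996210 to 5442592 UMIs per sum, so that 3 UMIs equal 0.551 to 3.01 CPM), and CPM values for genes use library sizes scaled by TMM, except those given over all libraries, for Xist and for Ddx3y. edgeR 4.0.16 in R 4.3.3 tested genes that passed filterByExpr with its quasi-likelihood test, leaving the 9 rule genes out of the calls, with Benjamini-Hochberg adjustment. The interaction of group and cell type had the sample as a block. DESeq2 1.42.0 with its own size factors was an alternative. The fits were tested on simulated data. Single values per sample were compared with exact permutation tests in SciPy 1.17.1. Gene positions are from GENCODE for GRCm38 and promoter windows from RefSeq GRCm38.p6. The windows were matched by Ensembl gene ID, and where that failed by symbol or by an unambiguous synonym.

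Replicate numbers are from the labels. Deviations from the group means of the OIR and control samples with the same number correlated at 0.387, 0.110 and 0.298 across genes for numbers 1 to 3. The main test did not pair the samples, and its calls, adjusted p-values and SE are unpaired. The replicate block, which took the numbers as pairs, was an alternative fit, and blocked values are given where they change a call. The genes named were, in each direction, the 10 called genes with the lowest p whose groups did not overlap and whose level in members was at least that in other barcodes, the 5 with the lowest p without that level condition, the measured genes of the mGluR6 and inhibitory receptor lists, called genes of the other lists, the 15 highest ratios of members to other barcodes, the 5 lowest p in each direction of the interaction, Dab2ip, and Xist with Y-linked genes. Others were chosen after their values were seen. Some genes that this rule names are not reported here. Intervals cover counting error only. The alternatives changed the test, the count filter, the pairing, the libraries, the member rule, the barcode filter and the depth, and 2 of them were added after seeing the data: the term for the Xist-positive libraries and the restriction to genes at or above their level in other barcodes.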

Additional observations from a re-analysis of the deposited data

Results flagged for a closer look

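Each of the following was noted because the effect of OIR differed between rod bipolar and cone bipolar members in a test of that difference (edgeR's quasi-likelihood test of the interaction, with Benjamini-Hochberg adjustment over 10333 genes). The value is the log2 fold change of OIR over control in rod bipolar members minus that in cone bipolar members. It was 2.97 for Fgf11, 2.11 for Actl6b, 1.77 for Ly6h, 1.10 for Car2 and 0.648 for Gngt1. It was -2.16 for Kcne2, -1.54 for Fos, -1.36 for Kcnj9, -0.967 for Tmsb10 and -0.808 for Bzw2. Fgf11 and Kcnj9 were also called within rod bipolar members, as were Ly6h and Actl6b, whereas for Car2, Gngt1, Kcne2, Fos, Tmsb10 and Bzw2 the change within rod bipolar members was not called. For Tmsb10 the rod bipolar change of -0.60 turned to 0.55 with a term for the Xist-positive libraries, which are 2 of the 3 controls.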

How the results depend on the processing

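Of 67 genes higher and 68 lower, 242 and 277 resulted with no filter on low counts, 269 and 275 with the replicate block, 198 and 271 with replicates 2 and 3 alone, 41 and 38 with members low in rod RNA, 44 and 37 with at most 10% mitochondrial counts, 23 and 25 with no upper limit on detected genes, 15 and 10 with members thinned to 1000 UMIs and 35 and 36 with the term for the Xist-positive libraries. Without members holding Mueller glia RNA 109 were higher and 101 lower. Leaving out single libraries gave 17 to 96 higher and 12 to 123 lower. DESeq2 gave 85 and 100, with 116 of the 135. The 31 genes whose effect differed between rod and cone bipolar members became 161 with no filter, 67 with at least 4 markers, 20 with at most 10% mitochondrial counts and 9 to 69 without single replicate numbers. The cause of these moves was not tested, except that thinning left 3188 genes to test.

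The share of kept barcodes, -0.397 points in OIR minus control, turned to 0.771 with at least 2 markers and to 0.348 with at most 10% mitochondrial counts, and ran from -3.04 to 2.55 without single libraries. The share of bipolar barcodes ran from -0.234 to 7.56. Over 74 single genes and differences, 1043 values under alternatives kept their call and direction, 103 lost the call, 12 gained it and 11 reversed. Those that reversed were not called to begin with: Lrit1 (-0.0584 to 0.162 without single libraries, -0.138 thinned), Gnb5 (-0.201 to 0.0152 without single libraries), Rgs11 (-0.117 to 0.264 without single libraries, -0.176 with replicates 2 and 3 alone), Gabrr1, Gphn and Car2 (0.0577, 0.0625 and 0.027 thinned), Gngt1 (-0.459 to 0.0429 without single libraries) and Tmsb10 (0.545 with the Xist term). With no upper limit on detected genes, 13 named genes lost their call, among them Ldha, Ero1l, Fam162a, Sox4, Stmn4, Ly6h and Actl6b.

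With 3 samples a group, the smallest p for a single value per sample is 0.1. Members of replicates 2 and 3 gave sums of 996210 to 1602932 UMIs, so genes near the count filter rest on few UMIs there. The replicate 1 libraries hold most members, and 2 of 3 controls differ from every OIR library in Xist.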

Other observations

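The following clock genes were listed after their values were seen. Of 16 listed, 15 were tested, 3 were called lower, beside 0.721% of all genes tested, and 14 had a negative log2 fold change, with a median of -0.32. With the replicate block Rorb was also called lower (adjusted p = 0.0438), beside 2.92% of all genes tested. Nr1d1, a repressor of the clock, measured 57.9, 56.4 and 60.4 CPM in OIR and 118, 122 and 102 CPM in control (-0.98, adjusted p = 0.00491). Nr1d2 measured 44.1, 62.9 and 56.1 CPM against 86.9, 104 and 123 CPM (-0.95, adjusted p = 0.0281), and Dbp 405, 306 and 273 CPM against 644, 501 and 568 CPM (-0.79, adjusted p = 0.042). The groups did not overlap in any of the 3. Arntl, which peaks in antiphase to these genes in most tissues, was the only positive one (0.26, adjusted p = 0.555). The hour at which samples were taken was not given in the sources used here.

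The following 4 genes, called lower, were chosen one by one after their values were seen. Bdnf, a growth factor of neurons, measured 18.0, 7.12 and 7.28 CPM in OIR and 35.2, 57.5 and 52.6 CPM in control (-1.92, adjusted p = 0.0186). Sema3e, which repels growing vessels and axons, measured 18.8, 22.6 and 24.0 CPM in OIR and 42.7, 47.0 and 58.8 CPM in control (-1.18, adjusted p = 0.0152). Slit2, a ligand of Robo receptors, measured 15.2, 16.0 and 18.2 CPM in OIR and 35.7, 28.4 and 34.0 CPM in control (-1.03, adjusted p = 0.0312). The chemokine Cx3cl1 measured 4.21, 2.97 and 0.728 CPM in OIR and 19.1, 8.21 and 12.4 CPM in control (-2.17, adjusted p = 0.042). In each the 3 OIR samples were below every control. Of these, Slit2 differed in its change from cone bipolar members, where it was at 0.08 (difference -1.20, adjusted p = 0.0296 in the interaction test). Its levels there were far higher, with means of 375 CPM in OIR and 357 CPM in control. DESeq2's Wald test did not call Slit2 in rod bipolar members (adjusted p = 0.0802). Values without single libraries are not given for these 4 genes or the clock genes. Over all genes, 12 to 14 lower calls were made without OIR replicate 2, OIR replicate 3 or control replicate 2.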
